A study of Mus musculus with 30 samples.

Results

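The genes described here are 10 proteases, receptors and enzymes that mark mast cells and basophils, namely Cma1, Mcpt4, Tpsb2, Tpsab1, Cpa3, Kit, Fcer1a, Ms4a2, Hdc and Mcpt8. They were taken by symbol from the 22121 genes on an Affymetrix mouse expression array, where 14 probe sets name one of them. All 14 had a mean above the lowest 20% of probe sets and were tested. The arrays held RNA of whole shaved back skin from female 129–C57BL/6 mice aged 8 to 12 weeks, either wild type (WT) or D6-deficient, that is, lacking the atypical chemokine receptor D6 in every cell. Mice of both genotypes received 3 applications of the phorbol ester TPA (50 μM in acetone) 24 hours apart, and skin was taken 1, 2, 4 or 6 days after the last one. Day 0 stands for mice that the design describes as given acetone only and the sample titles call untreated. The labels call the 3 arrays of each genotype at each day biological replicates, which makes 10 groups and 30 arrays, all of which were used.

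Mast cells live in the dermis and store histamine and proteases in granules bound to a serglycin matrix. They need the receptor Kit to survive, and they release their granules when antigen cross-links IgE on their high-affinity IgE receptor, FcεRI. Basophils share that receptor and the synthesis of histamine but circulate in blood, enter inflamed skin, and in mice carry the protease Mcpt8 in their granules. Histamine is also made by neutrophils and macrophages that have switched on Hdc, and Kit is also found on melanocytes, so neither of these genes belongs to mast cells alone.

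Values below are log2 of the signal intensity that the authors had normalized by RMA (background correction, quantile normalization and summary over the probes). A gene with several probe sets is described by the brightest one, and the others are named where they differed. Differences were tested with limma on all 30 arrays and 36030 probe sets, with Benjamini-Hochberg adjustment over all of them, and a change passed at an adjusted p under 0.05. Within groups, the median SD of a probe set was 0.153. On 1 of the 3 probe sets for the D6 gene (Ccbp2) the D6-deficient arrays lay between 3.30 and 3.86 and the WT arrays between 4.15 and 5.76. On the others the genotypes overlapped, at 4.55 to 5.42 and 5.14 to 6.26 on one. On the brightest they were at 6.59 to 8.09 and 6.69 to 8.54. Over all days the D6-deficient minus WT difference on these was -0.69 and -0.07 (limma adjusted p = 5.2e-05 and 0.8). The summed signal of 8 epidermal keratin and envelope genes lay between 14.7 and 16.6 on all arrays. In whole skin, fewer cells of a type and less RNA per cell cannot be told apart.

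The promoters of 8 of the 10 genes were matched in RefSeq, and the 250 bases before the start of 6 of them are shown because the results below fall along these genes: 3 granule proteases that moved together (Cma1, Mcpt4 and Cpa3) and 3 genes with a separate time course (Fcer1a, Hdc and Mcpt8). Capitals mark GATAA or its reverse complement TTATC, the core read by GATA factors, of which mast cells and basophils use GATA1 and GATA2. Each sequence runs 5′ to 3′ along the minus strand of GRCm38.p6.
Cma1, chr14:55944676-55944925: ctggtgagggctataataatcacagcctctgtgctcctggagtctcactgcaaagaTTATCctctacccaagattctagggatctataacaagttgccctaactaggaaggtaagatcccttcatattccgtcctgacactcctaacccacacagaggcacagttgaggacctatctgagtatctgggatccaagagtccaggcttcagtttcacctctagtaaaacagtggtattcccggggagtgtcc
Mcpt4, chr14:56062311-56062560: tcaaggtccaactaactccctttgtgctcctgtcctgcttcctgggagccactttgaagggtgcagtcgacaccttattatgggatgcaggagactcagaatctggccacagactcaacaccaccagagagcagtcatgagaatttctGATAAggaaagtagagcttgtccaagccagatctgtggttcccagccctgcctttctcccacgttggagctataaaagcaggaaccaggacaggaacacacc
Cpa3, chr3:20242182-20242431: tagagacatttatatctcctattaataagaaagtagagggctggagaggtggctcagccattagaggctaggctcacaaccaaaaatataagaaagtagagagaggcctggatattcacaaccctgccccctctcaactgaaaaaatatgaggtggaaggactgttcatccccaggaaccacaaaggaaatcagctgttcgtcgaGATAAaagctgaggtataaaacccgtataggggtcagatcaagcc
Fcer1a, chr1:173227230-173227479: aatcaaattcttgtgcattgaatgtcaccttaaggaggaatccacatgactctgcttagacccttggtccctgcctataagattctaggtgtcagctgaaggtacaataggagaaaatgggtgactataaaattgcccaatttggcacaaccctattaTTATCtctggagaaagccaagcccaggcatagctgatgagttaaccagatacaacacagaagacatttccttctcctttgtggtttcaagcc
Hdc, chr2:126618679-126618928: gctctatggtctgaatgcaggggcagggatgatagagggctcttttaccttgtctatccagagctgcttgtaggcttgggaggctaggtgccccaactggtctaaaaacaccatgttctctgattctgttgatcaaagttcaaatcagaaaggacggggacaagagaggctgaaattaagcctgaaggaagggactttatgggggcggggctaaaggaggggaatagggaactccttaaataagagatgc
Mcpt8, chr14:56085198-56085447: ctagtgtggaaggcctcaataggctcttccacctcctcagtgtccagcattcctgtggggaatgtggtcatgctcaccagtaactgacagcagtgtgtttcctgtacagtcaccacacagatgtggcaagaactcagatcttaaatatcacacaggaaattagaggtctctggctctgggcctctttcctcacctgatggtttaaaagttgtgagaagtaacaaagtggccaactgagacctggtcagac
The 4 windows of Cma1, Mcpt4, Cpa3 and Fcer1a each held GATAA once on either strand, and those of Hdc and Mcpt8 held none. Among all 32851 promoter windows of this length in the table, 22.6% held it. The Ms4a2 window held 3 copies and the Kit windows none. An E-box, CANNTG, was present once in Cma1 and Hdc, in 2 copies in Cpa3 and Fcer1a and in 3 in Mcpt8, against 66.2% of all windows with at least 1. TGANTCA, the AP-1 motif that phorbol esters are known to act through, stood in none of these 6 windows and in 6.75% of all. TATAAA was found in Mcpt4, Cpa3 and Fcer1a, and in 12.4% of all windows.

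**Figure D1:**
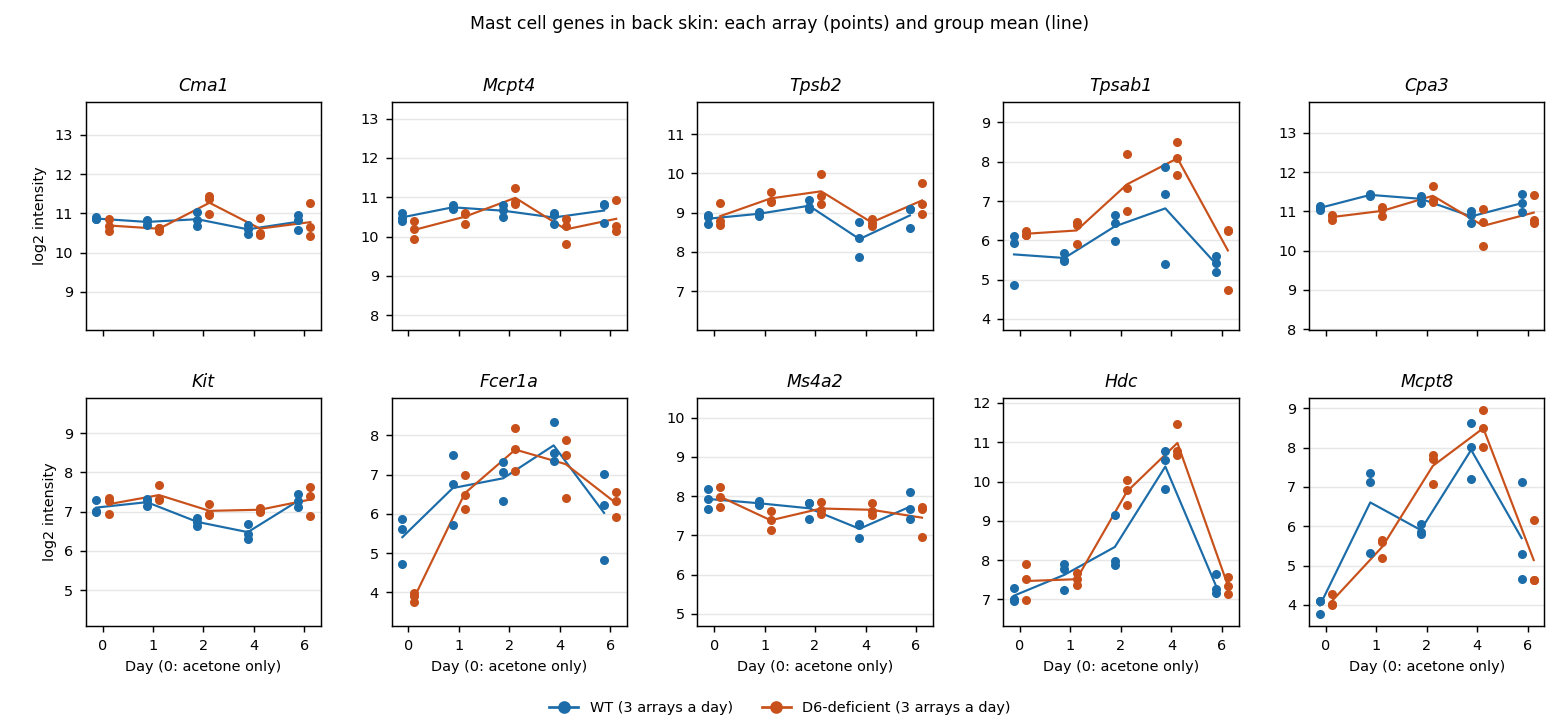
Log2 intensity of the brightest probe set of each of the 10 genes (y axis) by day after TPA (x axis, day 0 acetone only), with 1 point per array and a line through the mean of each genotype. Cma1, Mcpt4, Tpsb2 and Cpa3 had their highest D6-deficient mean at day 2, whereas Hdc, Mcpt8 and Fcer1a rose steeply and were lower again at day 6.

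The chymases and carboxypeptidase of mast cell granules passed at no day in WT skin after TPA, and in D6-deficient skin they were higher at day 2. Cma1 and Mcpt4 are chymases, proteases that split proteins after aromatic or aliphatic residues, and Cpa3 trims the carboxyl ends that chymases leave. None of the 3, nor the tryptase Tpsb2, passed the test in WT skin at any of the 4 days, with differences from day 0 between -0.52 and 0.33. In D6-deficient skin all 4 were higher at day 2 than at day 0, by 0.54 to 0.81, and by day 4 they stood within 0.22 of day 0. As the mean of the genotypes, all 4 also passed at day 2, where 20.8% of all probe sets were higher. The differences were 0.28 for Cma1, 0.49 for Mcpt4, 0.48 for Tpsb2 and 0.39 for Cpa3 (limma adjusted p = 0.0467, 0.0032, 0.0103 and 0.0166). The Cma1 call was lost in 9 of 12 fits without 1 array. The day 2 rise was not shown to differ between the genotypes.

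In D6-deficient skin, Cma1 stood at 10.67, 10.55 and 10.86 on the day 0 arrays and at 10.99, 11.44 and 11.37 at day 2. Every day 2 array lay above every day 0 array, and the difference was 0.58 (SE 0.16, limma adjusted p = 0.00599), a 1.49-fold rise. In WT skin the same gene was at 10.85, 10.90 and 10.85 at day 0 and at 10.84, 10.69 and 11.02 at day 2, so the groups overlapped and the difference of -0.02 (SE 0.16, 95% confidence interval -0.35 to 0.32) did not pass. Mcpt4 showed a larger rise in D6-deficient skin, from 10.19, 9.93 and 10.39 to 10.82, 11.24 and 10.89. Again no array of day 2 fell among those of day 0, and the difference was 0.81 (SE 0.18, adjusted p = 0.00105). In WT skin Mcpt4 went from 10.40, 10.46 and 10.61 to 10.67, 10.50 and 10.81, a difference of 0.17 (SE 0.18) that did not pass. Both calls in D6-deficient skin held without any 1 of the 6 arrays, with adjusted p up to 0.0402 for Cma1 and 0.0116 for Mcpt4.

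Cpa3, on the same arrays, went from 10.91, 10.77 and 10.89 to 11.25, 11.65 and 11.29 in D6-deficient skin. The groups were apart and the difference was 0.54 (SE 0.18, limma adjusted p = 0.021), but the call was lost without D6-deficient day 2 replicate 2 (0.41, adjusted p = 0.124) or day 0 replicate 2 (0.50, adjusted p = 0.0677). WT skin started higher, at 11.13, 11.09 and 11.04, and reached 11.34, 11.21 and 11.40 at day 2, a difference of 0.23 (SE 0.18) that did not pass. Tpsb2, the tryptase that mast cells hold as tetramers on heparin, rose by 0.63 (SE 0.21, adjusted p = 0.0198) in D6-deficient skin, from 8.68, 8.80 and 9.26 to 9.43, 9.97 and 9.23. Here the lowest day 2 array lay just under the highest day 0 array, and the call was lost without day 0 replicate 1 (0.52, adjusted p = 0.0964), day 0 replicate 2 (0.58, adjusted p = 0.068) or day 2 replicate 2 (0.42, adjusted p = 0.161). The dimmer Tpsb2 probe set, between 3.91 and 4.80 on all arrays, did not pass in either genotype at any day against day 0.

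These 4 genes fell again between days 2 and 4. In D6-deficient skin, the day 4 level minus the day 2 level was -0.66 for Cma1 (SE 0.16, limma adjusted p = 0.00562), -0.80 for Mcpt4 (SE 0.18, adjusted p = 0.00325), -0.76 for Cpa3 (SE 0.18, adjusted p = 0.00459) and -0.79 for Tpsb2 (SE 0.21, adjusted p = 0.0104), against 8.54% of all probe sets lower and 7.76% higher between these days. The Cpa3 call was lost without day 4 replicate 1 (-0.51, adjusted p = 0.0544), whose value of 10.12 was the lowest of the gene on any array, and the Tpsb2 call without day 2 replicate 2 (-0.58, adjusted p = 0.0988). In WT skin Tpsb2 was also lower at day 4 than at day 2 (-0.85, SE 0.21, adjusted p = 0.00678, where 7.39% of all probe sets were lower and 7.16% higher), with arrays at 7.87, 8.77 and 8.35 after 9.31, 9.08 and 9.14. Without WT day 4 replicate 1, the lowest of them, the difference was -0.62 (adjusted p = 0.0733).

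**Figure D2:**
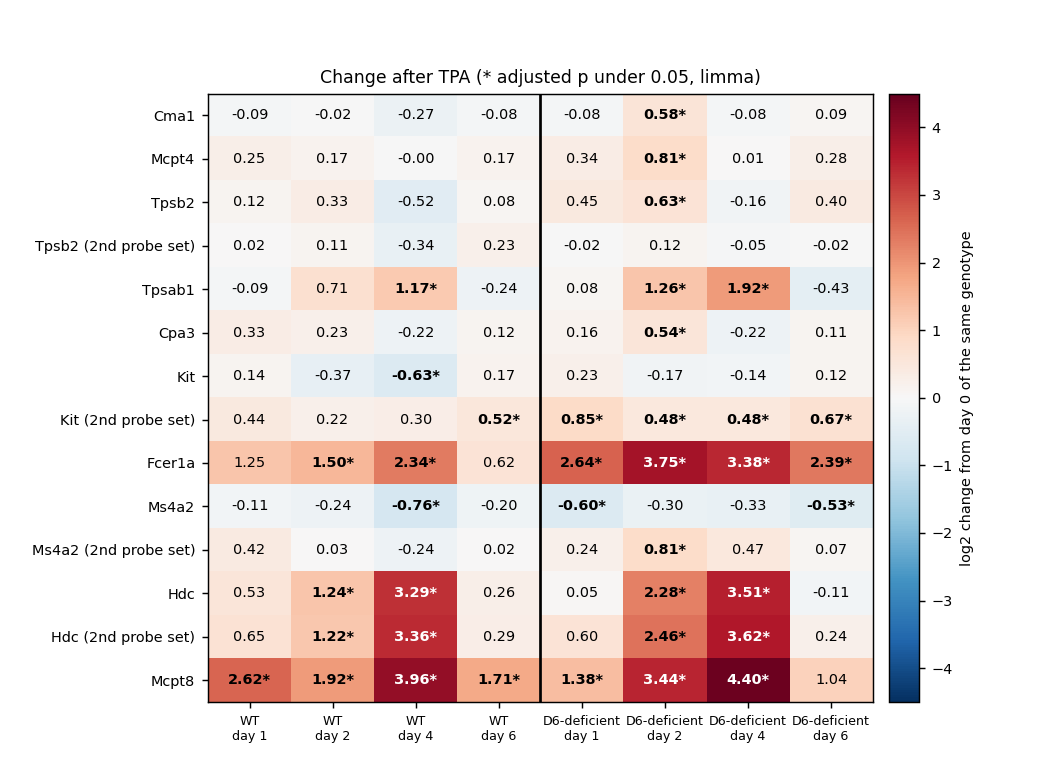
Heatmap of the log2 difference from day 0 of the same genotype, with the 14 probe sets as rows, days 1, 2, 4 and 6 of WT and D6-deficient skin as columns, red for higher, blue for lower, and bold type with a star for a limma adjusted p under 0.05. Hdc, Mcpt8 and Fcer1a carry the deepest red, at 2.34 to 4.40 at day 4, while Cma1, Mcpt4, Cpa3 and the brighter Tpsb2 probe set carry a star in D6-deficient skin at day 2 alone.

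Tpsab1, annotated as a second mast cell tryptase, did not follow Tpsb2. It peaked at day 4, when Tpsb2 was at its lowest. On D6-deficient arrays the day 0 values were 6.24, 6.14 and 6.12, the day 2 values 7.32, 8.2 and 6.75, and the day 4 values 7.67, 8.51 and 8.09. All arrays of both later days lay above day 0, and the differences were 1.26 at day 2 (SE 0.46, limma adjusted p = 0.034) and 1.92 at day 4 (SE 0.46, adjusted p = 0.00167). The day 4 call held without any 1 array (adjusted p up to 0.0129), whereas at day 2 leaving out any of 5 of the 6 arrays took the adjusted p to between 0.0583 and 0.2, the last of these without day 2 replicate 2 (0.87).

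In WT skin Tpsab1 was 5.95, 6.11 and 4.88 at day 0 and 5.40, 7.87 and 7.18 at day 4. The groups overlapped, since WT day 4 replicate 1 stayed within the day 0 range, and the difference of 1.17 (SE 0.46, limma adjusted p = 0.0468) was lost without day 4 replicate 2 (0.65, adjusted p = 0.297), day 4 replicate 3 (0.99, adjusted p = 0.159), day 0 replicate 3 (0.79, adjusted p = 0.238) or day 0 replicate 1 (1.32, adjusted p = 0.0538). By day 6 the gene was again at 5.41 ± 0.20 (mean and SD of 3 arrays) in WT mice and 5.74 ± 0.87 in mice without D6, and in the latter the drop from day 4 was -2.35 (SE 0.46, adjusted p = 3.8e-04). The RefSeq table names no gene for the identifier that the array gives this probe set, and it lists the symbol Tpsab1 under another identifier, as a transcribed pseudogene of the C57BL/6J strain. The mice carried both 129 and C57BL/6 background, and the part of strain in the Tpsab1 values, including differences between the genotypes, was not tested.

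Kit, the receptor of stem cell factor, was measured by a pair of probe sets that disagreed. On the brighter one, WT skin went from 7.0, 7.02 and 7.29 at day 0 to 6.44, 6.69 and 6.30 at day 4, with no overlap, a fall of 0.63 on the log2 scale (SE 0.16, limma adjusted p = 0.00243) that held without any 1 array. D6-deficient skin went from 6.95, 7.28 and 7.34 to 7.04, 7.0 and 7.1 on the same probe set, which overlapped and did not pass at -0.14 (SE 0.16). On the dimmer probe set Kit was higher in D6-deficient skin at all 4 days, by 0.85 at day 1 (SE 0.19, adjusted p = 0.00112), 0.48 at days 2 and 4 (adjusted p = 0.0473 and 0.0427) and 0.67 at day 6 (adjusted p = 0.00842). In WT skin it passed at day 6 alone, at 0.52 (SE 0.19, adjusted p = 0.0489).

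Kit also marks melanocytes, and 9 melanocyte genes were tested. In WT skin 6 of them were higher at day 1 and 7 at day 6, and in D6-deficient skin 7 were higher on either day, with medians between 2.36 and 3.66. Of all probe sets, 11.4% and 10.2% were higher on these days in WT skin and 18.2% and 16% in D6-deficient skin. At day 4 none was higher and 2 were lower in each genotype, among them Dct, an enzyme of melanin synthesis, at -1.35 (WT) and -1.65 (D6-deficient). At day 4, 21.8% of all probe sets were lower in WT skin and 22.4% in D6-deficient skin. The summed signal of the 9 melanocyte genes ran from 11.1 to 11.5 in WT skin at day 0 and from 10.6 to 11.3 at day 4. The part of melanocyte RNA in the Kit values was not tested.

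Fcer1a, the IgE-binding alpha chain of FcεRI, rose at every day after TPA in D6-deficient skin. Day 0 arrays read 3.75, 3.98 and 3.91, day 1 arrays 6.49, 6.11 and 6.98, day 2 arrays 7.64, 8.17 and 7.08, and day 4 arrays 6.41, 7.50 and 7.89. Every later array lay above every day 0 array, and the differences were 2.64, 3.75 and 3.38 (SE 0.48, limma adjusted p = 1.56e-04, 1.5e-06 and 4.39e-06), with 2.39 left at day 6 (adjusted p = 5.87e-04). All 4 calls held without any 1 array. The day 0 arrays lay near the bottom of the scale, and with 16 intensity units added before log2 the 4 differences were 1.82, 2.81, 2.48 and 1.60, each of which still passed (adjusted p up to 0.00411).

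In WT skin Fcer1a started higher, at 5.86, 4.73 and 5.62. It was at 7.06, 7.33 and 6.32 at day 2 and at 8.33, 7.55 and 7.34 at day 4, above all day 0 arrays on both days. The difference at day 4 was 2.34 (SE 0.48, limma adjusted p = 4.24e-04) and held without any 1 array. At day 2 it was 1.5 (adjusted p = 0.0228), and this call was lost without WT day 0 replicate 2 (1.16, adjusted p = 0.119), day 2 replicate 1 (1.42, adjusted p = 0.0652) or day 2 replicate 2 (1.29, adjusted p = 0.1). Day 1 did not pass at 1.25 (adjusted p = 0.061), and without WT day 1 replicate 2, whose 5.71 lay among the day 0 values, it was 1.72 (adjusted p = 0.0161).

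Ms4a2, the signal-amplifying beta chain of the same receptor, did not rise with the alpha chain on its brighter probe set. In WT skin it fell from 8.18, 7.67 and 7.93 at day 0 to 7.26, 7.30 and 6.94 at day 4, without overlap (-0.76, SE 0.20, limma adjusted p = 0.00352), and was 7.73 ± 0.36 at day 6. In D6-deficient skin it was lower at day 1 (-0.60, adjusted p = 0.0195) and day 6 (-0.53, adjusted p = 0.0412). The day 1 call was lost without day 1 replicate 1 (-0.48, adjusted p = 0.105) or day 0 replicate 3 (-0.47, adjusted p = 0.106), and the day 6 call without day 6 replicate 2 (-0.29, adjusted p = 0.303), day 0 replicate 1 (-0.53, adjusted p = 0.0829) or day 0 replicate 3 (-0.40, adjusted p = 0.183). The dimmer probe set passed once, higher in D6-deficient skin at day 2 by 0.81 (SE 0.30, adjusted p = 0.0362), where the brighter one read -0.30.

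Hdc, the enzyme that turns histidine into histamine, rose in both genotypes at days 2 and 4. In WT skin the day 0 arrays read 7.30, 6.97 and 7.02, the day 2 arrays 7.89, 9.14 and 7.98, and the day 4 arrays 10.55, 9.81 and 10.78. The D6-deficient arrays of day 0 read 7.53, 6.98 and 7.89, those of day 2 9.41, 10.03 and 9.79, and those of day 4 11.47, 10.79 and 10.69. In both genotypes days 0, 2 and 4 did not overlap, and the order was the same.

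Against day 0, Hdc was higher by 1.24 at day 2 and 3.29 at day 4 in WT skin (SE 0.30, limma adjusted p = 0.00299 and 7.84e-09). In D6-deficient skin it was higher by 2.28 and 3.51 (adjusted p = 1.84e-06 and 1.78e-09), an 11.4-fold rise at day 4. It then fell, with day 6 minus day 4 at -3.02 in WT skin (adjusted p = 7.54e-08) and -3.63 in D6-deficient skin (adjusted p = 2.59e-09), and at day 6 it stood at 0.26 and -0.11 against day 0, neither of which passed. The second Hdc probe set gave 1.22 and 3.36 for WT and 2.46 and 3.62 for D6-deficient mice, and every call of the first held without any 1 array.

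Mcpt8, the basophil granule protease, was near the bottom of the scale at day 0, with 4.09, 3.75 and 4.11 on WT arrays and 4.29, 3.99 and 4.01 on D6-deficient arrays. By day 4 the WT arrays had reached 8.00, 7.19 and 8.63 and the D6-deficient arrays 8.03, 8.49 and 8.96. The differences were 3.96 (SE 0.51, limma adjusted p = 1.7e-06) and 4.40 (SE 0.51, adjusted p = 2.73e-07). Their size depends on the low day 0 values, since with 16 intensity units added before log2 they were 3.05 and 3.51 (adjusted p = 4.56e-06 and 5.11e-07), beside 3.14 and 3.40 for Hdc on that scale.

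Mcpt8 was also higher than at day 0 on the earlier days. WT skin was at 7.37, 5.33 and 7.12 at day 1 and at 6.06, 5.79 and 5.86 at day 2, all above day 0 (2.62, adjusted p = 6.13e-04 by limma, and 1.92, adjusted p = 0.00706). D6-deficient skin was at 5.59, 5.65 and 5.2 at day 1 and at 7.09, 7.80 and 7.72 at day 2 (1.38, adjusted p = 0.0375, and 3.44, adjusted p = 1.13e-05). The day 1 call in D6-deficient skin was lost in 5 of the 6 fits without 1 array, at adjusted p between 0.0574 and 0.0999, and with 16 intensity units added (0.87, adjusted p = 0.111). The genotypes were not shown to differ at day 1 (-1.13, SE 0.51, adjusted p = 0.598) or day 2 (1.63, adjusted p = 0.0741). At day 6 the WT arrays lay apart, at 7.13, 5.31 and 4.65, and the difference of 1.71 (adjusted p = 0.0183) was lost without WT day 6 replicate 1 (1.00, adjusted p = 0.158) or day 0 replicate 2 (1.60, adjusted p = 0.0603), or with 16 intensity units added (1.16, adjusted p = 0.0513).

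Counted over the 14 probe sets, 11 rose and 0 fell by day 2 in mice lacking D6, where 17.5% of all probe sets were higher and 20.6% lower. Their median difference was 0.72 and that of all probe sets -0.01. Leaving out D6-deficient day 0 replicate 1 gave 7, leaving out day 0 replicate 2 or day 2 replicate 2 gave 6, and leaving out any 1 of the other 3 arrays gave 9. Over 3-fold there were 4 (Fcer1a, both Hdc probe sets and Mcpt8), against 1.7% of all. In WT skin at day 2, 4 were higher, the same 4 probe sets, against 11% of all, and 0 were lower, against 15%.

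The other days were counted in the same way. In WT skin day 1 had 1 higher and 0 lower (11.4% and 12.7% of all), day 4 had 5 and 2 (17.3% and 21.8%), and day 6 had 2 and 0 (10.2% and 11.9%). In D6-deficient skin day 1 had 3 higher and 1 lower (18.2% and 18.1% of all), day 4 had 6 and 0 (18.8% and 22.4%), and day 6 had 2 and 1 (16% and 15.7%). From day 4 to day 6, 5 were lower and 4 higher in WT skin (10% and 12.1% of all), and 4 lower and 1 higher in D6-deficient skin (14.5% and 16.8%).

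The genotypes were next compared on the same day, since the study asked how the skin response to TPA departs from WT when D6 is lacking. Hdc at day 2 was the 1 gene of the 10 that passed. The D6-deficient arrays at 9.41, 10.03 and 9.79 all exceeded the WT arrays at 7.89, 9.14 and 7.98, by 1.41 (SE 0.30, 95% confidence interval 0.80 to 2.02, limma adjusted p = 0.00458), a 2.66-fold difference. The second probe set gave 1.34 (adjusted p = 0.00584), so 2 of 14 probe sets were higher, against 2.46% of all higher and 1.99% lower. The call held without any 1 of the 6 arrays, at adjusted p up to 0.0483. In the unpaired t-tests that the study's methods name, it passed at an unadjusted p under 0.05. With Benjamini-Hochberg adjustment added to those t-tests it did not pass (adjusted p = 0.298).

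Other genes that lay apart between the genotypes did not pass. Those with the lowest adjusted p were Mcpt8, Kit and Fcer1a. Mcpt8 at day 2 was higher in D6-deficient skin by 1.63 (SE 0.51, limma adjusted p = 0.0741), with no overlap between 7.09 to 7.80 and 5.79 to 6.06. Fcer1a at day 0 was lower in D6-deficient skin by 1.52 (SE 0.48, adjusted p = 0.112), also without overlap, at 3.75 to 3.98 against 4.73 to 5.86. Kit at day 4 read 7.0 to 7.1 against 6.30 to 6.69, a difference of 0.57 (adjusted p = 0.106). Further brightest probe sets whose arrays did not overlap, at adjusted p from 0.242 to 0.81, were lower in D6-deficient skin for Mcpt4 and Cpa3 at days 0 and 1 and for Cma1 and Ms4a2 at day 1, and higher for Tpsab1 at days 0, 1 and 2, Tpsb2 at day 1, Mcpt4 and Kit at day 2, and Ms4a2 at day 4. How many of all probe sets lacked overlap was not counted. With 3 arrays against 3, a lack of overlap alone gives an exact permutation p of 0.1, so it does not show a difference. At days 0, 1, 4 and 6 no probe set of the 10 genes passed. Of all probe sets, 0.713%, 0.0194%, 0.289% and 0.025% passed as higher on these days and 0.855%, 0.0361%, 0.225% and 0.0999% as lower. At an unadjusted limma p under 0.05 there were 1, 4, 3 and 0 of the 14, against 5146, 2887, 3620 and 3016 of all 36030.

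**Figure D3:**
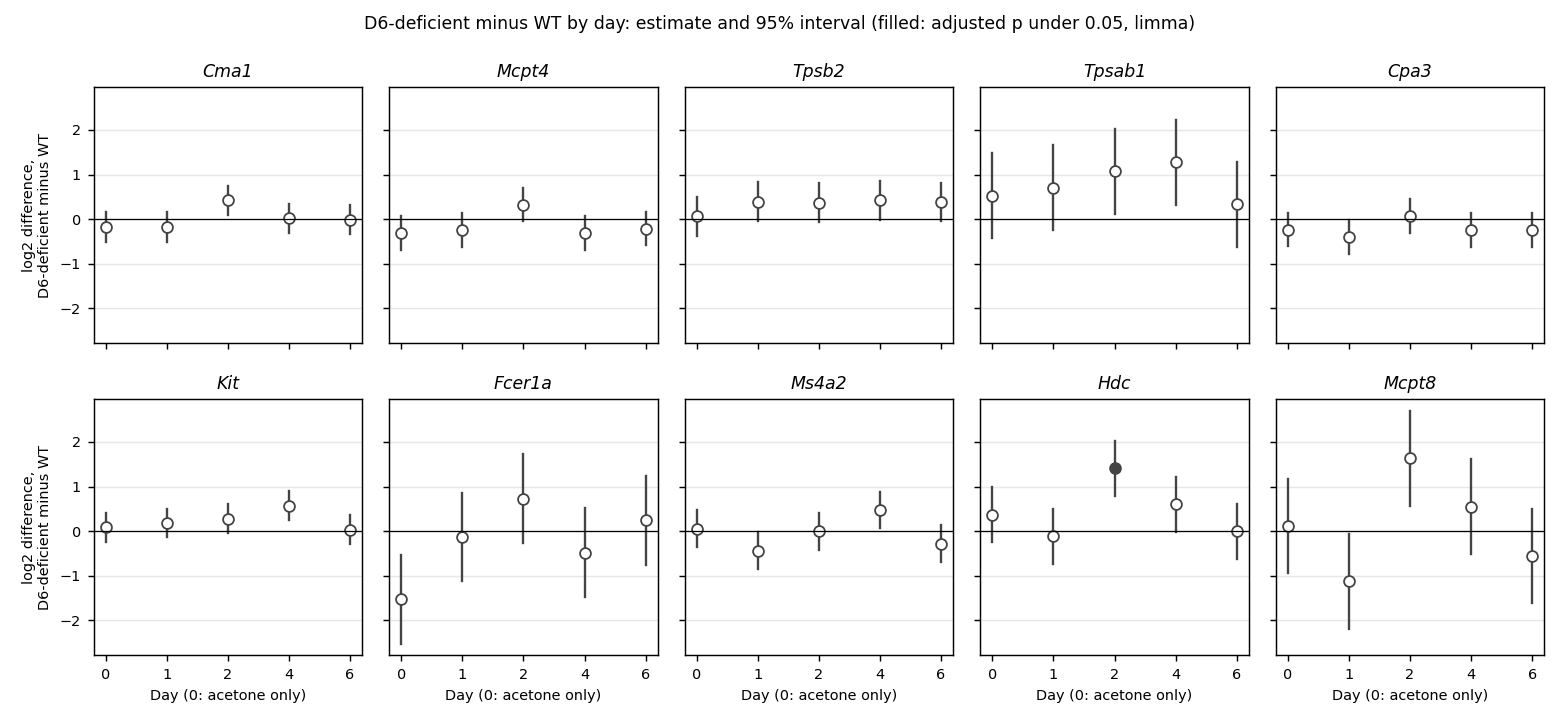
Log2 difference of D6-deficient minus WT skin (y axis) for the brightest probe set of each of the 10 genes at days 0, 1, 2, 4 and 6 (x axis), where points are limma estimates, bars their 95% confidence intervals, and filled points have an adjusted p under 0.05. The only filled point is Hdc at day 2, at 1.41, and Fcer1a lies at -1.52 at day 0 and 0.73 at day 2.

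The study also set each genotype against its own day 0 before comparing them. On that scale 0 of the 14 probe sets passed at any of days 1, 2, 4 and 6. Of all probe sets, 0.00278%, 2.78%, 0.192% and 0.0139% passed as higher and 0.0167%, 2.62%, 0.416% and 0.0111% as lower. At an unadjusted limma p under 0.05 there were 0, 6, 1 and 1 of the 14, against 3494, 6089, 3949 and 2886 of all 36030. Fcer1a came closest at day 2, where its rise was larger in D6-deficient skin by 2.25 (SE 0.68, 95% confidence interval 0.85 to 3.66, limma adjusted p = 0.0525). It passed without WT day 0 replicate 2 (2.59, adjusted p = 0.0386) or D6-deficient day 2 replicate 3 (2.53, adjusted p = 0.0448), and the low D6-deficient values at day 0 enter this difference, which was 1.60 with 16 intensity units added (adjusted p = 0.114). Hdc, whose rise was larger by 1.04 (SE 0.42, adjusted p = 0.178), passed without WT day 2 replicate 2 (1.44, adjusted p = 0.0264). For the granule proteases at day 2 the difference between the rises was 0.59 for Cma1 (SE 0.23, adjusted p = 0.148), 0.65 for Mcpt4 (SE 0.26, adjusted p = 0.176) and 0.31 for Cpa3 (SE 0.26, adjusted p = 0.625), so a difference between the genotypes was not shown for their day 2 rise.

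Over the mean of all 5 days, 4 of 14 probe sets were higher and 0 lower in D6-deficient skin, against 2.29% and 3.23% of all. Tpsab1 was higher by 0.78 (SE 0.21, limma adjusted p = 0.0244), and this held without any 1 of the 30 arrays, at adjusted p up to 0.0465. Tpsb2 was higher by 0.33 (SE 0.09, adjusted p = 0.0408) and Hdc by 0.45 (SE 0.13, adjusted p = 0.0438), but these calls were lost in 16 and 19 of the 30 fits without 1 array, at adjusted p up to 0.0741 and 0.0825. Kit passed on its dimmer probe set, at 0.29 (adjusted p = 0.0432), and reached 0.23 on the brighter one (adjusted p = 0.0517). Cpa3 and Mcpt4 had the opposite sign, at -0.21 (SE 0.08) and -0.15 (SE 0.08), and did not pass.

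**Figure D4:**
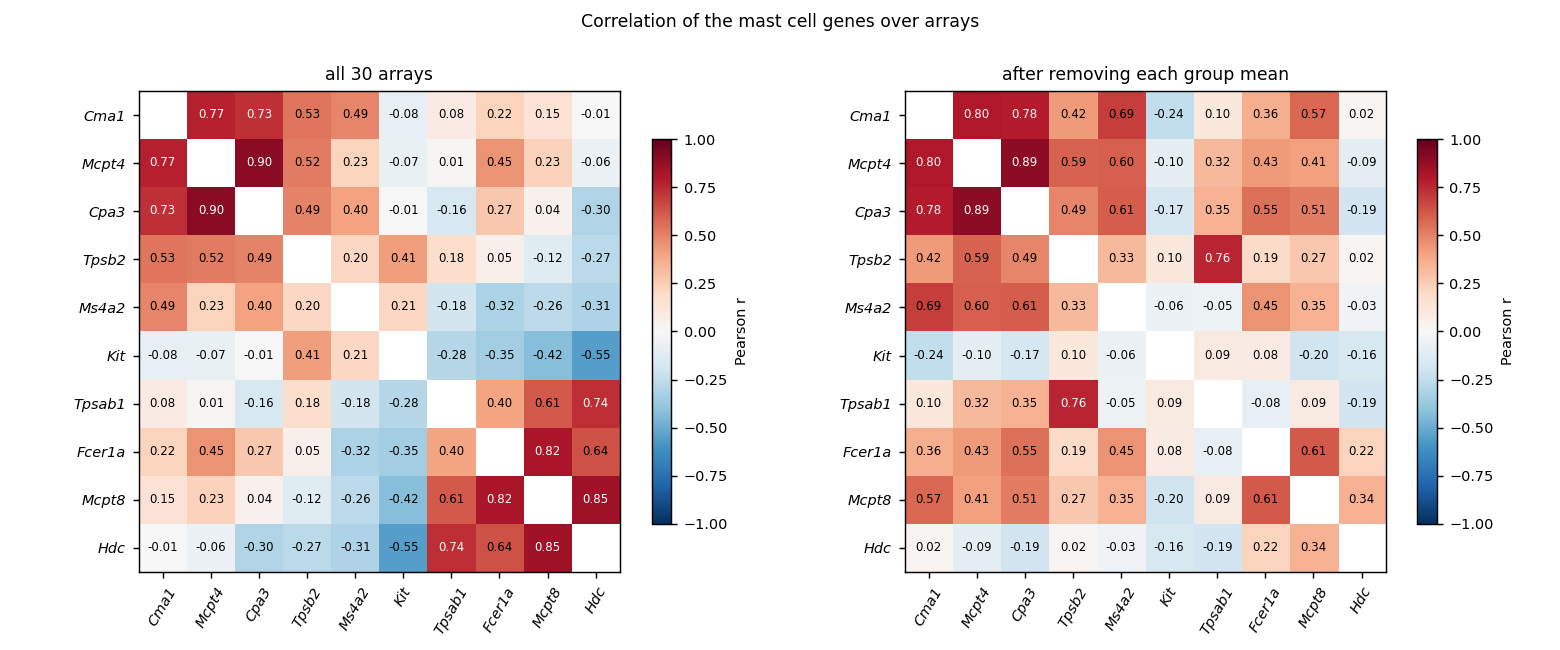
Heatmaps of the Pearson correlation between the brightest probe sets of each pair of the 10 genes, over all 30 arrays (left) and after the mean of each genotype and day was taken away (right), with red for positive and blue for negative. Cma1, Mcpt4 and Cpa3 stay together in both views, at 0.73 to 0.90, while Hdc with Mcpt8 goes from 0.85 to 0.34.

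Across the 30 arrays, Mcpt4 and Cpa3 had a correlation of 0.90, Cma1 and Mcpt4 of 0.77 and Cma1 and Cpa3 of 0.73, and after the mean of each group was removed these were 0.89, 0.80 and 0.78. Hdc and Mcpt8 had a correlation of 0.85 over all arrays and 0.34 within groups, and Fcer1a and Mcpt8 of 0.82 and 0.61. Tpsab1 went with Hdc over all arrays (0.74) and with Tpsb2 within groups (0.76), and the reverse pairings were -0.19 and 0.18. All these points share their array, its normalization and the skin sample, and arrays of a group share their treatment. The granule protease mean of Cma1, Mcpt4, Tpsb2 and Cpa3 spread most in D6-deficient skin at day 6, where replicate 3 stood 0.46 above the mean of its group and the others 0.24 and 0.22 below.

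Of genes outside the 10, those whose values over the 30 arrays were most like the granule protease mean were Rnase6 (r = 0.87), Nat2 (0.84), Vsnl1 (0.82), Hscb (0.81), 1110001A16Rik (0.81), 1810011O10Rik (0.81), 2010110P09Rik (0.80), Fam69a (0.80), Rgs10 (0.80) and Psat1 (0.80), out of 17762 genes ranked. Within groups the values of r for Rnase6 and Nat2 were 0.71 and 0.72.

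Other genes known from mast cells were counted next. Of 26 listed genes, 21 were tested, and at day 4 the counts were 7 higher and 3 lower for WT and 6 higher and 3 lower for D6-deficient mice. These 21 stood beside 17.3% higher and 21.8% lower of all probe sets for WT at day 4, and 18.8% and 22.4% for D6-deficient mice. At day 2, D6-deficient mice had 7 higher and 0 lower, beside 17.5% and 20.6% of all. The largest rises in both genotypes at day 4 were in Nfe2, a blood cell transcription factor (2.89 in WT and 3.46 in D6-deficient mice), Gpr35, a leukocyte receptor (2.51 and 2.79), and Srgn, the serglycin core that holds granule proteases (2.04 and 2.24). Slc18a2, which pumps histamine into granules, was lower at day 4 in both genotypes, at -1.22 (WT) and -0.85 (D6-deficient). Ctsg, a granule protease of mast cells and neutrophils encoded at the chymase locus, was higher in D6-deficient skin at day 2, by 1.38 against day 0 and by 1.19 against WT (limma adjusted p = 0.0462). The median over the 21 genes at day 4 was 0.25 for WT and 0.15 for D6-deficient mice, and at day 2 it was 0.22 for D6-deficient mice, against 0.01, 0.01 and -0.01 over all probe sets.

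Signalling partners of Kit and FcεRI were counted in 1 list with the cytokine and cytokine receptor genes Il4, Il13, Il33, Csf2rb and Il3ra. Of 17 tested, day 4 gave 12 higher and 3 lower for WT and 9 higher and 1 lower for D6-deficient mice. Day 2 gave 10 higher and 1 lower for D6-deficient mice. Of all probe sets, 17.3% were higher and 21.8% lower for WT at day 4. For D6-deficient mice these were 18.8% and 22.4% at day 4 and 17.5% and 20.6% at day 2. Whether these changes arose in mast cells was not tested. Il33, an alarm cytokine that acts on mast cells and basophils, rose by 2.55 in WT skin and by 2.40 in D6-deficient skin at day 4. Fcer1g, the gamma chain that FcεRI shares with other Fc receptors, rose by 1.54 and by 2.06. Kitl, the ligand of Kit, was lower in WT skin at day 4 (-0.36, limma adjusted p = 0.047) and stood at 0.19 in D6-deficient skin, where it did not pass. Between the genotypes at day 2, 4 of the 17 were higher in D6-deficient skin, namely Il33 (1.44), Fcer1g (0.85), Lyn, the kinase that starts FcεRI signalling (0.75), and Lat2, an adaptor of that receptor (0.61). Of all probe sets, 2.46% were higher in this comparison.

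Genes next to the chymases on chromosome 14 were tested as well. Of 5 tested, 4 were higher in D6-deficient skin at day 2: Gzmb (1.49), Ctsg (1.38), Gzmc (1.32) and Mcpt2 (0.53). Of all probe sets, 17.5% were higher and 20.6% lower in the same comparison. Gzmb, a granule protease of cytotoxic lymphocytes, was higher at day 4 by 3.43 (WT) and 3.51 (D6-deficient), with limma adjusted p of 1.06e-08 and 4.56e-09, when Cma1 and Mcpt4 stood within 0.27 of day 0. Ctsg and Mcpt2 also stand in the list of other mast cell genes. The mean log2 value of Mcpt2 over all arrays was 3.81, close to the lowest mean tested, 3.72.

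**Figure D5:**
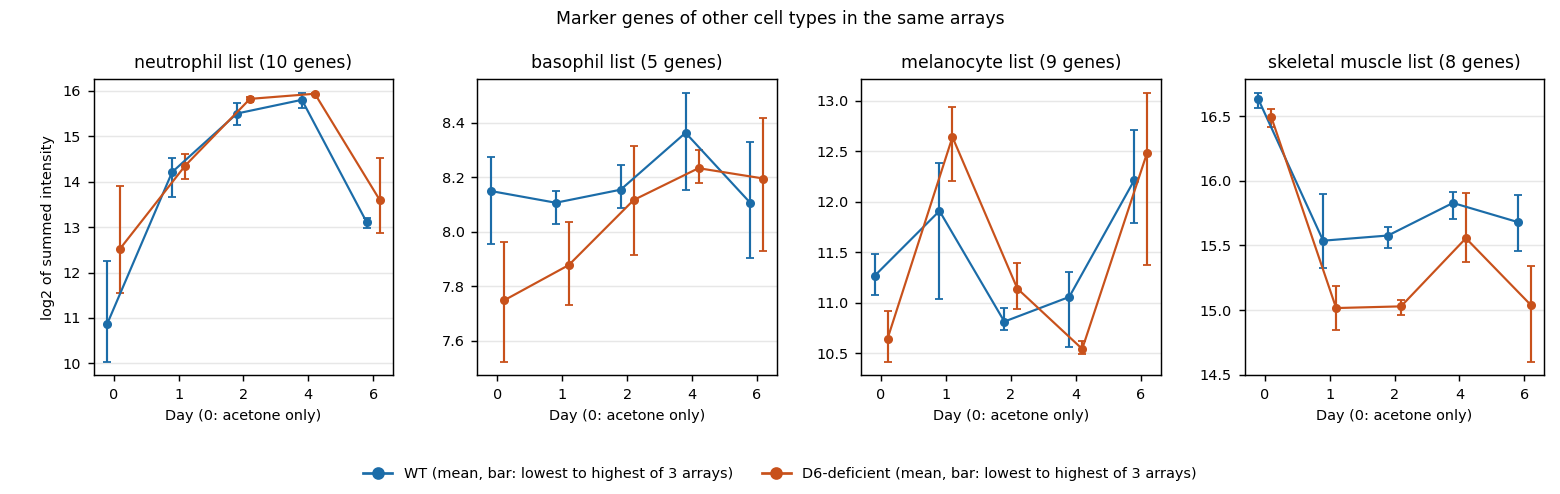
Log2 of the summed intensity (y axis) of 10 neutrophil, 5 basophil, 9 melanocyte and 8 skeletal muscle genes by day (x axis) and genotype, with points for the mean of 3 arrays and bars from the lowest to the highest of them. The neutrophil sum, which rests mostly on S100a8 and S100a9, lies between 10.03 and 13.9 at day 0 and between 15.6 and 15.96 at day 4. The basophil sum stays between 7.52 and 8.51 on all arrays, and the skeletal muscle sum is lower at every day after TPA than at day 0.

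The summed neutrophil signal was higher than at day 0 on days 2 and 4, when Hdc, Fcer1a and Mcpt8 were also higher. This sum rests mostly on S100a8 and S100a9, with mean log2 values of 12.9 and 13.0, against at most 9.41 for the other listed genes. The part of other cell types in the S100a8 and S100a9 values was not tested. The sum was also higher at day 1, where its mean went from 10.9 to 14.2 in WT skin and from 12.5 to 14.3 in D6-deficient skin. Hdc passed in neither genotype alone at day 1. On its dimmer probe set the mean went from 6.44 to 7.08 in WT skin and from 6.54 to 7.14 in D6-deficient skin. That probe set passed as higher in the mean of the genotypes, as did 21.8% of all probe sets. Of 10 tested neutrophil genes, 9 were higher at day 4 in WT skin and all 10 at days 2 and 4 in D6-deficient skin, with medians of 3.95, 3.60 and 4.13. Between the genotypes at day 2, where Hdc differed, 8 of these 10 were higher in D6-deficient skin with a median of 1.86, and their summed signal lay between 15.3 and 15.7 on WT arrays and between 15.8 and 15.9 on D6-deficient arrays. Of 7 macrophage genes, 4 were higher at day 2 in D6-deficient skin, and 2 were higher than in WT on that day, but at day 4 each genotype had 4 higher and 3 lower and the macrophage sum was at 14.4 to 14.9, beside 14.3 to 14.9 at day 0. The summed eosinophil signal was lower at day 4, at 9.12 to 11.6 against 11.85 to 12.97 at day 0. That sum rests mostly on Ear1 and Ear2, with mean log2 values of 10.2 and 11.2, against at most 6.15 for the other listed genes. The single eosinophil genes went in both directions, as counted under Other observations. Of 5 tested basophil genes other than Mcpt8, 4 were higher in WT skin at day 4 (Ccr3 by 1.40, Itga2 by 1.07, Il4 by 0.70 and Cd200r3 by 0.34) and 3 in D6-deficient skin at day 4 (Itga2 by 0.95, Ccr3 by 0.79 and Cd200r3 by 0.41). Of all probe sets, 17.3% were higher and 21.8% lower at day 4 in WT skin. In D6-deficient skin 17.5% were higher at day 2, and 18.8% were higher and 22.4% lower at day 4. Between the genotypes at day 2, 2.46% were higher in D6-deficient skin. The part of neutrophils, macrophages, eosinophils and basophils in the Hdc, Fcer1a and Mcpt8 values was not tested. Skeletal muscle genes, which mark the muscle layer under the skin, fell on every day after TPA, 7 or 8 of the 8 tested passing in each genotype, with medians from -0.90 to -1.19 for WT and from -1.08 to -1.72 for D6-deficient mice. Their sum lay between 16.4 and 16.7 at day 0 and between 14.6 and 15.9 afterwards, and over all days all 8 were lower in the mice without D6 (median -0.48). Of all probe sets, 11.9% to 21.8% were lower on the days after TPA in WT skin and 15.7% to 22.4% in D6-deficient skin. Between the genotypes over all days, 3.23% were lower. The part of the muscle share in the values of the 10 genes was not tested.

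A technical split of the arrays was also checked. The signals of 9 hybridization control probe sets put 13 arrays in one set and 17 in another, with 6 WT and 7 D6-deficient arrays in the smaller set. All 3 D6-deficient day 6 arrays were in the larger set, and 2 of the 3 D6-deficient day 0 arrays in the smaller. With the set as a covariate, the Ms4a2 call at day 6 in D6-deficient skin was lost (limma adjusted p = 0.0994). With 4 arrays in the smaller set and 2 in the larger, the day 2 difference from day 0 in D6-deficient skin was 0.51 and 0.71 for Cma1, 0.87 and 0.70 for Mcpt4, 0.62 and 0.39 for Cpa3, 3.96 and 3.33 for Fcer1a, 2.28 and 2.27 for Hdc and 3.44 and 3.43 for Mcpt8. Hdc at day 2, D6-deficient minus WT, was 1.84 and 1.23, with 3 arrays in each set, and 1.5 with the set as a covariate (limma adjusted p = 0.00196). Tpsab1 in D6-deficient skin at day 2 differed from day 0 by 1.63 in the smaller set and 0.51 in the larger, and in WT skin at day 4 by 2.99 with 2 arrays and 0.26 with 4.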

How the data were processed

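The authors hybridized RNA of each skin sample to an Affymetrix mouse array and deposited linear intensity values made by RMA, which the submitters' processing notes also name. Here log2 of each deposited intensity was taken with no further scaling, 64 control probe sets were left out, and of the remaining 45037 probe sets the 20% with the lowest mean (9007) were not tested, as in the study's methods, which leaves means of 3.72 and above. No array was left out and no 2 arrays were identical. RMA makes the arrays alike in distribution, so differences are relative to the whole array, and very low signals are compressed.

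A model with 1 mean per genotype and day was fitted with limma 3.58.1 (lmFit and eBayes, 20 residual degrees of freedom) in R 4.3.3, where the study's methods used unpaired t-tests, and p values were adjusted by Benjamini-Hochberg within each of 28 contrasts. The fit was tested on simulated data. Figures were drawn with Python 3.11.15 and matplotlib 3.10.9. Groups came from the sample labels, which call the arrays biological replicates, so p values measure the spread between these samples. With 3 arrays a group the number of arrays limits the precision, and an exact permutation test of 3 against 3 cannot give a p under 0.1.

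The 10 genes and the gene lists were chosen with earlier results of these data known. All their probe sets are accounted for, with the brightest standing for a gene. Of each list, counts and up to 4 genes with the widest change are given, with a few others, such as Kitl, named for their role. Promoter sequences and gene positions came from RefSeq tables on GRCm38.p6, in which Tpsb2 and Tpsab1 had no promoter entry. Histology and PCR were not analysed here.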

Additional observations from a re-analysis of the deposited data

How the results depend on the processing

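Of 280 differences (10 genes in 28 contrasts) 74 passed. They were recomputed with other filters, centring, pseudocount, fits and probe set rules, and without single arrays, 5480 values in all. Of these, 5135 stayed on the same side of the threshold, with the same direction where they passed. Another 248 no longer passed, 96 newly passed and 1 reversed: averaging its probe sets turned Kit at day 4 over both genotypes from -0.38 to 0.0039 (adjusted p = 0.978). Changes of sign where neither the first nor the recomputed value passed were not counted as reversed. Centring arrays on their median took the median of all probe sets furthest at day 4 in D6-deficient skin, from 0.007 to 0.117.

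Counted over the 14 probe sets, 14 differences passed against day 0 in WT skin, 24 in D6-deficient skin, 2 between the genotypes on the same day, 0 relative to day 0, 29 between successive days and 31 as the mean of the genotypes with the difference over all days. Asking for a change over 3-fold left 7 in WT and 11 in D6-deficient skin, 0 on the same day, 14 between successive days and 10 in the mean. The methods' t-test, adjusted by Benjamini-Hochberg, left 7 in WT skin, 0 on the same day, 1 relative to day 0 and 6 between successive days, and unadjusted it gave 13 on the same day and 12 relative to day 0. Averaging the probe sets of a gene gave 1 on the same day and 1 relative to day 0. Relative to day 0, 1 also passed with the lowest 50% left out, with centring or with the control set as a covariate, and 2 in fits restricted to the arrays compared. The cause was not tested. Leaving out single arrays gave 11 to 15 for WT, 17 to 24 for D6-deficient mice, 1 to 4 on the same day, 0 to 2 relative to day 0, 23 to 31 between successive days and 25 to 37 in the mean.

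Replicate numbers are shared across groups, but samples of the same number did not deviate together (median correlation -0.01, from -0.352 to 0.481, with 12 of 30 arrays closest to their own number), so they were not treated as pairs. With the replicate number as a block the counts were 13, 24, 2, 0, 29 and 30 in the order above, and of the 74 differences the one call lost was Hdc over all days (0.45, adjusted p = 0.0553).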

Other observations

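Eosinophil genes went in more than 1 direction. Of 6 tested, day 4 gave 4 higher and 2 lower for WT and 1 higher and 2 lower for D6-deficient mice. Of all probe sets, 17.3% were higher and 21.8% lower for WT at day 4, and 18.8% and 22.4% for D6-deficient mice. Over all days 4 of the 6 were lower in D6-deficient skin, with a median of -0.69, and Ccr3, a chemokine receptor that basophils and eosinophils share, was among the lower genes at -0.64 (limma adjusted p = 0.00561). Rgs13, a regulator of G protein signalling known from mast cells and B cells, was higher in D6-deficient skin at day 2 by 1.26 (limma adjusted p = 4.22e-04). Its mean log2 value over all arrays was 3.76, close to the lowest mean tested, 3.72. Rab27b, which guides granules to the cell membrane, was higher at day 2 by 1.39 in WT skin (adjusted p = 3.98e-06) and by 0.50 in D6-deficient skin (adjusted p = 0.0279).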
